A study of Rattus norvegicus with 12 samples.

Results

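The genes of the cAMP signalling pathway downstream of or beside most of its receptors, without protein kinase A, were examined in ND7/23 cells, a line that came from fusing mouse neuroblastoma cells with neurons of the rat dorsal root ganglion. Members were the genes whose pathway annotation held the rat KEGG cAMP pathway and not the ligand-receptor pathway, without the kinase A subunits, the phosphodiesterases, the Gli, Ptch and Hhip genes, Fos, Jun, the calcium and pacemaker channels, the calcium pumps, the Orai channels and *Myl9*. This rule gave 116 members of 196 genes with the cAMP label and of 21556 genes in all. It left in the receptors *Hcar2* and *Sucnr1* and the receptor guanylate cyclase *Npr1*, which had at most 12, 1 and 11 reads in any library and were not tested. The cells were untreated (control) or received 100 μM menthol, an agonist of the cold channel TRPM8, or 100 ng/ml Wnt3a, a ligand of the canonical Wnt pathway, or both, each for 6 h, with 3 libraries in each of the 4 groups. The labels did not say whether the 3 libraries of a group came from separate cultures, so the p-values measure the spread between these libraries, which may be technical.

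In this pathway, receptors act through stimulatory and inhibitory G proteins on adenylate cyclases, which make cAMP. cAMP activates protein kinase A and, separately, the exchange factors Epac1 and Epac2, which load the small GTPases Rap1A and Rap1B. Further downstream the pathway map holds the MAP kinase and PI3 kinase routes, the CREB transcription factors with their coactivators CBP and p300, calmodulin and its kinases, and transporters such as the sodium-potassium pump. In sensory neurons cAMP signalling is known for its part in sensitisation and peptide release.

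Values are FPKM, which count read fragments per kilobase of gene, scaled by the mapped fragments of the library, so that levels can be compared between genes. Between 36914722 and 38837023 reads fell on genes in each library. A gene was tested when its mean over the 12 libraries was at least 0.5 FPKM, which 75 members and 11451 genes in all passed. The tests were made with limma on log2(FPKM + 0.1), with p-values adjusted over all tested genes (Benjamini-Hochberg), and calls were made where this p was under 0.05. The Wnt3a effect compared the 6 libraries that received Wnt3a with the 6 that did not, and the menthol effect did the same for menthol. The labelled cell type was checked against 12 neuronal markers. *Uchl1*, *Isl1* and *Nefh* passed the minimum, with mean levels of 101, 13.2 and 5.93 FPKM. The other 9, which include the defining markers *Prph*, *Tubb3* and *Stmn2*, lay under it. Of 6 fibroblast markers, 4 passed the minimum. The collagen *Col1a2* had a mean of 115 FPKM, and *Col1a1*, *Pdgfra* and *Col3a1* had 6.74, 6.53 and 2.36. *Dcn* and *Lum* lay under it at 0.194 and 0.0886 FPKM. *Trpm8*, the receptor of menthol, had 61 to 97 reads per library, which is 0.189 to 0.307 FPKM.

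A single member changed by this test. *Creb3l2*, which encodes a membrane-anchored transcription factor of the CREB3 family that is released in the secretory pathway, fell by 19.8% with Wnt3a. The other 74 tested members passed the test in none of the 7 comparisons, and no member passed for menthol. For most of them the intervals were narrow. The 95% interval of the Wnt3a effect lay within 1.5-fold of no change for 72 of the 75 tested members, and that of the menthol effect for 73. The exceptions were *Atp1b2*, *Camk2b* and *Fxyd2* for Wnt3a, and *Nppa* and *Tnni3* for menthol, all with mean levels under 1 FPKM. A change of 2-fold lay outside these intervals for every tested member and both effects, on the log2(FPKM + 0.1) scale, which shrinks the differences of low genes. By limma voom on the reads of genes with a mean of at least 10 reads, the interval reached past 2-fold for *Fxyd2* with Wnt3a (-1.07 to 0.13) and for *Nppa* with menthol (-1.28 to 0.053).

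**Figure D1:**
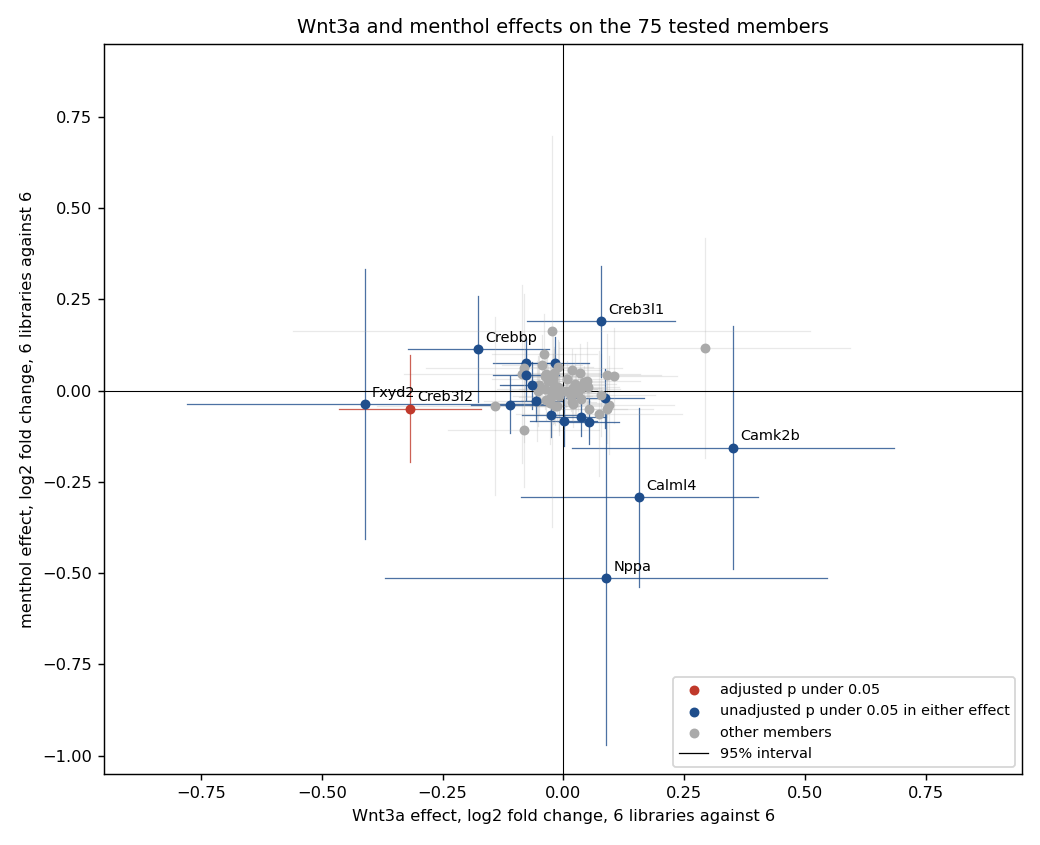
The Wnt3a effect (horizontal axis) and the menthol effect (vertical axis) of the 75 tested members, both as log2 fold changes of 6 libraries against 6, with lines for the 95% intervals. The called member *Creb3l2* (red) lies at -0.32 for Wnt3a, members with an unadjusted p under 0.05 in either effect are blue, and most of the others (grey) lie close to 0 on both axes.

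The promoter of *Creb3l2* is shown because this was the called member, and that of *Rap1b* because it held the whole cAMP response element and *Rap1b* had the lowest p for the menthol effect. Both run 5′ to 3′ in the direction of the gene from 250 bases before to 50 after its start, as RefSeq gives them on the GRCr8 build. That of *Creb3l2* lies at chr4:66990783-66991082 and that of *Rap1b* at chr7:55342168-55342467, both on the minus strand. The capitals mark the cAMP response element TGACGTCA, the shorter form of it, TGACG, and the TCF/LEF core CTTTGA, the letters to which Wnt pathway transcription factors are known to bind, on either strand.
Creb3l2: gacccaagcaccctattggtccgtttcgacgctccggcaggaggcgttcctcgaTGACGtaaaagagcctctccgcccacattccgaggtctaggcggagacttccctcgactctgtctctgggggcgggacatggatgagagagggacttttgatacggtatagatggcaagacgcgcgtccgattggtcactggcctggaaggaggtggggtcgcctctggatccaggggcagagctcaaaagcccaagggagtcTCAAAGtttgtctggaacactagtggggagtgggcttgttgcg
Rap1b: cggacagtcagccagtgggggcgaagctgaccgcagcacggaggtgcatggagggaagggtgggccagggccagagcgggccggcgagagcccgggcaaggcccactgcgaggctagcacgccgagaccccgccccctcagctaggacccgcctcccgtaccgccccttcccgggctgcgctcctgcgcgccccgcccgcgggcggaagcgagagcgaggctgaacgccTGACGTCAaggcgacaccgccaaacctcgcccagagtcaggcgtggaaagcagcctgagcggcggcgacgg

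In *Creb3l2* the shorter form began 196 bases before the start and a TCF/LEF core on the other strand began at base 8 after it. In *Rap1b* the whole element began 21 bases before the start, and it holds the shorter form on both strands. The whole element was found in 1.91% of the 27457 promoters of the table, the shorter form in 22.0% and the TCF/LEF core in 15.9%. In the promoters of the tested genes these shares were 3.36%, 33.5% and 11.4%. Of the 54 tested members with a promoter in the table, 4 held the whole element, 23 the shorter form and 4 the TCF/LEF core. The promoters of *Crebbp* and *Ep300* held none of these letters in this window. A match is a run of letters and no measure of binding.

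The levels by role set out what the cells had of the pathway. Of the 75 tested members, 12 had a mean over 100 FPKM, 33 lay between 10 and 100, and 30 lay between 0.5 and 10. The median was 17.8 FPKM, against 10.4 over all tested genes. The highest were *Calm2* at 403 FPKM, *Rac1* at 265, *Gnai2* at 253 and *Rhoa* at 248. Of the 41 members that were not tested, 12 had at most 3 reads in every library, and 11 had a mean of 10 reads or more. The members next to the minimum were *Nppa* at 0.507 and *Camk2b* at 0.520 FPKM inside it, and *Adcy3* at 0.469 and *Adcy7* at 0.387 outside it.

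**Figure D2:**
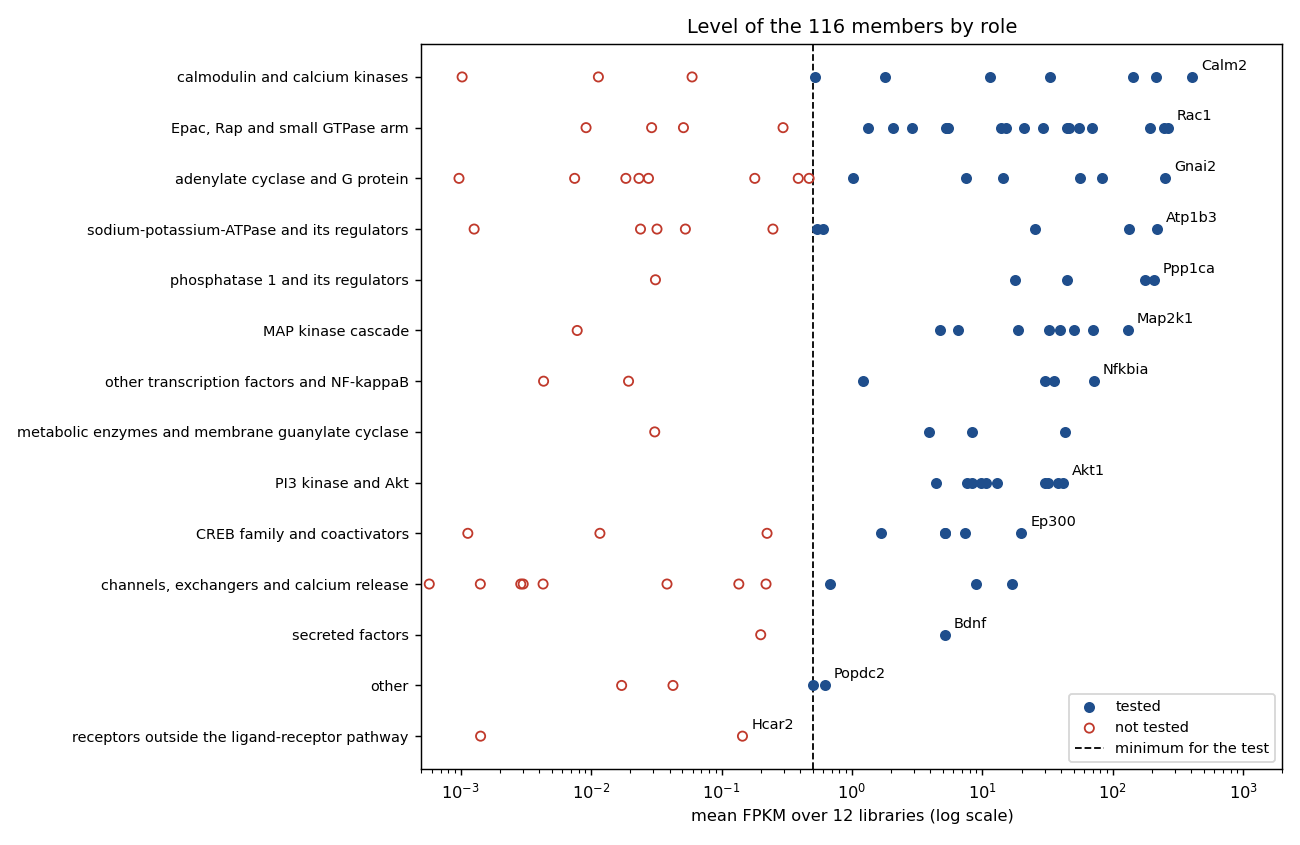
Mean FPKM over the 12 libraries (horizontal axis, log scale) of the 116 members, 1 row for each role, with filled points for tested members, open points for untested ones and a dashed line at the minimum of 0.5 FPKM. The highest member of most rows is named, and *Calm2* stands highest at 403 FPKM.

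Few adenylate cyclase genes reached the minimum. Of the adenylate cyclases, *Adcy6*, a calcium-inhibited form, had the highest mean at 7.44 FPKM and *Adcy9* stood at 1.02. These were the cyclases tested. *Adcy10*, the soluble cyclase that bicarbonate activates, had a mean of 0.180 FPKM, and *Adcy1* and *Adcy2* had at most 3 reads in every library. Among the G protein alpha subunits, the inhibitory *Gnai2*, *Gnai3* and *Gnai1* had means of 253, 83.3 and 14.4 FPKM and the stimulatory *Gnas* 56.5.

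None of these genes passed the test. *Adcy6* had a mean of 7.40 ± 0.592 FPKM in the controls, 7.58 ± 0.424 under menthol, 7.31 ± 0.776 under Wnt3a and 7.45 ± 0.516 under both agents (SD, n = 3 each). The groups overlapped. Its log2 difference was -0.022 for Wnt3a, with a 95% interval of -0.15 to 0.10, and 0.033 for menthol, with one of -0.092 to 0.16. *Gnas* differed by 0.014 for Wnt3a (interval -0.029 to 0.057) and *Gnai2* by 0.030 (interval -0.018 to 0.079). *Gnai1* had the lowest p of this role, with a menthol effect of 0.077 (SE 0.033, limma adjusted p = 0.279), which did not pass.

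*Creb3l2* was the called member. In the control libraries it stood at 1.93, 1.77 and 1.87 FPKM, and with menthol alone at 1.80, 1.81 and 1.98. With Wnt3a alone it stood at 1.55, 1.42 and 1.63 FPKM, and with both agents at 1.33, 1.38 and 1.54. The highest of the 6 libraries with Wnt3a lay below the lowest of the 6 without it, so the groups did not overlap. The mean was 1.48 ± 0.113 FPKM with Wnt3a and 1.86 ± 0.0828 without (SD, n = 6 each), on 504 to 759 reads per library. The Wnt3a effect was -0.32 on the log2 scale (SE 0.068, interval -0.46 to -0.17, limma adjusted p = 0.0493).

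This made 1 of 75 tested members (1.33%), against 92 of 11451 tested genes (0.803%). *Creb3l2* was also the one tested member whose 6 libraries with Wnt3a did not overlap the other 6, which held for 1.17% of the tested genes. The menthol effect on it was -0.049 (interval -0.20 to 0.098) and the interaction -0.11 (interval -0.40 to 0.18). Wnt3a alone against control gave -0.26 (limma adjusted p = 0.215), and both agents against menthol alone -0.37 (limma adjusted p = 0.321). These 2 did not pass. The call lay close to the threshold. It was lost when any 1 library other than Wnt3a replicate 3 was left out, with a limma adjusted p of 0.0578 to 0.128 in those 11 fits and a log2 difference of -0.29 to -0.35 over all 12. It was made by limma voom on the recovered read counts (adjusted p = 0.00115), and by voom it held in 12 of 12 such fits on the genes with a mean of at least 10 reads (adjusted p 0.000758 to 0.00557).

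The coactivators CBP and p300, which *Crebbp* and *Ep300* encode and which acetylate histones at CREB target genes, did not pass. *Crebbp* stood at 7.72, 7.73 and 7.54 FPKM in control and at 7.50, 8.08 and 7.80 with menthol. It stood at 7.04, 5.12 and 7.10 FPKM with Wnt3a and at 7.02, 7.51 and 7.49 with both. Wnt3a replicate 2 lay far below all other libraries. The Wnt3a effect was -0.18 (SE 0.068, limma adjusted p = 0.251), and -0.10 without that library.

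*Ep300* stood at 20.4, 19.7 and 20.8 FPKM in control and at 18.5, 17.1 and 19.5 with Wnt3a, and the same library was again the lowest. With menthol it stood at 20.1, 20.1 and 20.9, and with both at 20.4, 20.1 and 20.3. All 3 libraries with Wnt3a alone lay below the other 9. Wnt3a alone against control gave -0.15 (limma adjusted p = 0.142) and both agents against Wnt3a alone 0.15 (limma adjusted p = 0.184). The interaction was 0.14 (interval 0.0037 to 0.28, limma adjusted p = 0.715). By limma voom on the reads, *Crebbp* and *Ep300* passed for Wnt3a alone against control (adjusted p = 0.0403 for each), and neither passed without Wnt3a replicate 2 in the voom fit on genes with a mean of at least 10 reads (adjusted p = 0.379 and 0.336).

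**Figure D3:**
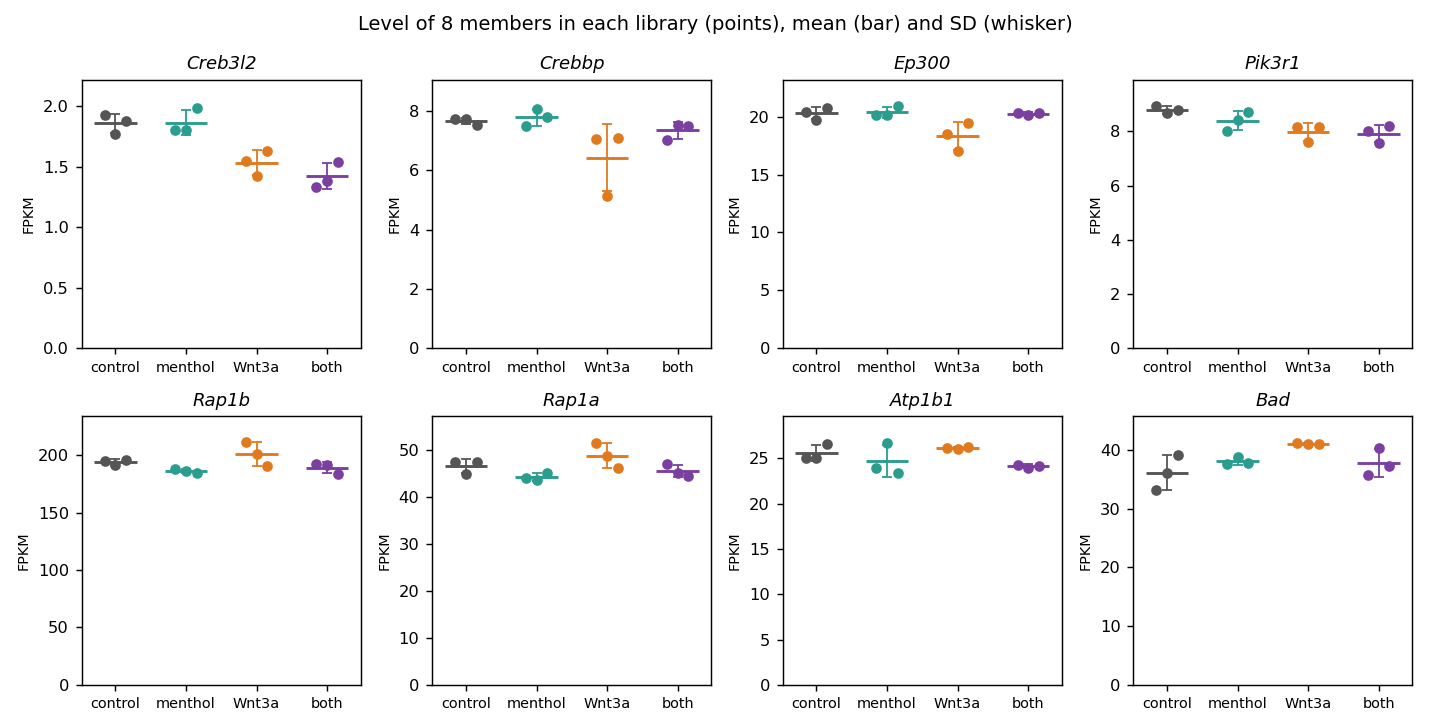
FPKM (vertical axes, on their own scales) of 8 tested members in each of the 12 libraries (points), with the mean (bar) and SD (whisker) of the 3 libraries of each group. *Creb3l2* lies lower in all 6 libraries with Wnt3a, and in the panel of *Crebbp* the Wnt3a library at 5.12 FPKM lies apart from the other 11.

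That library also differed over all genes. Genes were split by transcript length into 5 classes of equal size. In Wnt3a replicate 2 the shortest class lay 0.0725 above its gene means (median, log2) and the longest class lay at -0.0667, and in Wnt3a replicate 1 these values were 0.0448 and -0.0336. In the 3 controls the shortest class lay at -0.0284 to -0.0181. *Crebbp* (10540 bases), *Creb3l2* (9940), *Pik3r1* (9711) and *Ep300* (8530) were in the longest class, and *Bad* (1345) in the shortest. When each library was centred within these classes, *Creb3l2* was still called, at -0.30 (limma adjusted p = 0.0424). The part of transcript length in the values of the other members was not tested.

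**Figure D4:**
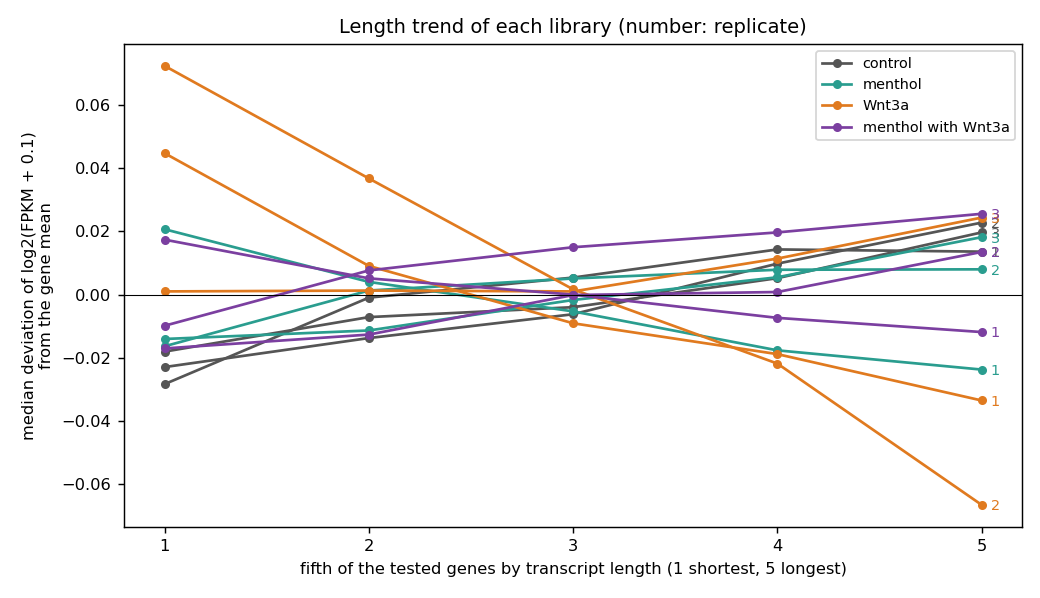
Median deviation of log2(FPKM + 0.1) from the gene mean (vertical axis) in each of the 5 classes of the tested genes by transcript length (horizontal axis, 1 shortest), 1 line for each of the 12 libraries with its replicate number. Wnt3a replicate 2 runs from 0.0725 in the shortest class to -0.0667 in the longest.

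Of the remaining CREB genes, *Creb1*, the main cAMP-responsive factor, had a mean of 5.02 ± 0.248 FPKM in the controls, 4.95 ± 0.161 under menthol, 5.29 ± 0.525 under Wnt3a and 5.25 ± 0.249 under both agents (SD, n = 3 each). Its Wnt3a effect was 0.077 (interval -0.034 to 0.19). *Creb3l1*, a close relative of *Creb3l2*, had a menthol effect of 0.19 (SE 0.071, limma adjusted p = 0.216) and a Wnt3a effect of 0.078. It stood at 4.57, 4.74 and 4.69 FPKM in control and at 4.69, 5.15 and 6.40 with menthol. The menthol values reached into the control range, and the difference did not pass.

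The exchange factors of the second cAMP effector arm were scarce. *Rapgef4* (Epac2) had a mean of 0.296 FPKM and *Rapgef3* (Epac1) of 0.0510, and neither was tested. *Rapgef3* had 4 to 16 reads per library. The Rap1 GTPases that they load were abundant. *Rap1b* had the lowest p of all members for the menthol effect. It stood at 195, 191 and 196 FPKM in control and at 188, 186 and 185 with menthol, so that these groups did not overlap. With Wnt3a it stood at 211, 201 and 191 FPKM and with both at 192, 191 and 184, where the groups did overlap.

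The menthol effect on *Rap1b* was -0.072 (SE 0.024, limma adjusted p = 0.170) and that on *Rap1a* -0.085 (SE 0.029, limma adjusted p = 0.176). Neither passed. The mean of *Rap1a* was 44.9 ± 1.17 FPKM in the 6 libraries with menthol and 47.7 ± 2.29 in the 6 without (SD). No tested member passed for the menthol effect, against 132 genes in all (1.15%). None of the tested members had 6 libraries with menthol that did not overlap the other 6, against 1.54% of tested genes. At an unadjusted p under 0.05, 9 of 75 members (12%) lay under it for menthol, against 15.5% of tested genes.

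Among the other small GTPase genes, *Rac1* and *Rhoa*, which regulate the cytoskeleton, had Wnt3a effects of -0.012 (interval -0.058 to 0.033) and 0.016 (interval -0.027 to 0.060). *Rras2*, a Ras relative, had a Wnt3a effect of -0.078 (limma adjusted p = 0.286). *Pak1*, a kinase that Rac activates, had one of -0.056 (limma adjusted p = 0.321). *Pld2*, a phospholipase D, had a menthol effect of -0.066 (limma adjusted p = 0.264). Of the 17 tested members of this role none passed.

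The PI3 kinase role had the second lowest p of all members for Wnt3a. *Pik3r1*, the regulatory subunit p85 alpha, stood at 8.94, 8.67 and 8.79 FPKM in control and at 8.02, 8.44 and 8.72 with menthol. It stood at 8.15, 7.59 and 8.17 FPKM with Wnt3a and at 8.02, 7.56 and 8.19 with both. The 3 controls lay above every other group's values except the menthol library at 8.72. The Wnt3a effect was -0.11 (SE 0.037, limma adjusted p = 0.175) and did not pass in any of the alternatives (adjusted p 0.0527 to 0.330).

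The catalytic subunit *Pik3cb* had a Wnt3a effect of -0.066 (limma adjusted p = 0.340), and the regulatory *Pik3r3* an interaction of 0.14 (limma adjusted p = 0.715). *Bad*, a pro-apoptotic target of Akt, stood at 33.2, 36.0 and 39.1 FPKM in control and at 41.1, 40.9 and 41.1 with Wnt3a. With menthol it stood at 37.7, 38.8 and 37.8 and with both at 35.7, 40.4 and 37.2. All 3 libraries with Wnt3a alone lay above the other 9. Wnt3a alone against control gave 0.19 (limma adjusted p = 0.126), and the interaction, -0.20, had the lowest p of the members for that comparison (SE 0.075, limma adjusted p = 0.715). *Akt1* itself had a Wnt3a effect of -0.038 (interval -0.094 to 0.018).

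In the MAP kinase cascade, 8 of 9 members were tested and none passed. *Map2k1*, which encodes MEK1, had means of 127 ± 3.21 FPKM in the controls, 128 ± 2.27 under menthol, 130 ± 3.12 under Wnt3a and 133 ± 2.30 under both agents (SD, n = 3 each). Its Wnt3a effect was 0.043 (interval -0.0013 to 0.087) and its menthol effect 0.024. The Wnt3a effects of the 8 lay between -0.053 and 0.043.

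Of the sodium-potassium pump, the beta subunit genes *Atp1b3* and *Atp1b1* had means of 219 and 25.1 FPKM. *Atp1b3* had a Wnt3a effect of 0.017 and a menthol effect of 0.0049, and neither passed. *Atp1b1*, a beta subunit that brings the pump to the membrane, stood at 26.1, 26.1 and 26.2 FPKM with Wnt3a and at 24.3, 23.9 and 24.2 with both. These groups did not overlap, but both agents against Wnt3a alone, at -0.11, did not pass (limma adjusted p = 0.282). The menthol effect was -0.083 (limma adjusted p = 0.235).

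*Fxyd2*, the gamma regulator of the pump, had the largest Wnt3a difference of a tested member in either direction, -0.41 (interval -0.78 to -0.042, limma adjusted p = 0.294). It rested on 9 to 37 reads per library. *Atp1b2* had a Wnt3a effect of 0.29 (interval -0.0084 to 0.59) on 44 to 82 reads.

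By limma voom on the genes with a mean of at least 10 reads, a setting chosen after these values were seen, 3 of 86 members passed for Wnt3a (3.49%), against 286 of 13365 genes (2.14%). *Creb3l2* was among them, and so was *Crebbp*, at an adjusted p of 0.04999 and in 3 of 12 fits with 1 library left out.

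**Figure D5:**
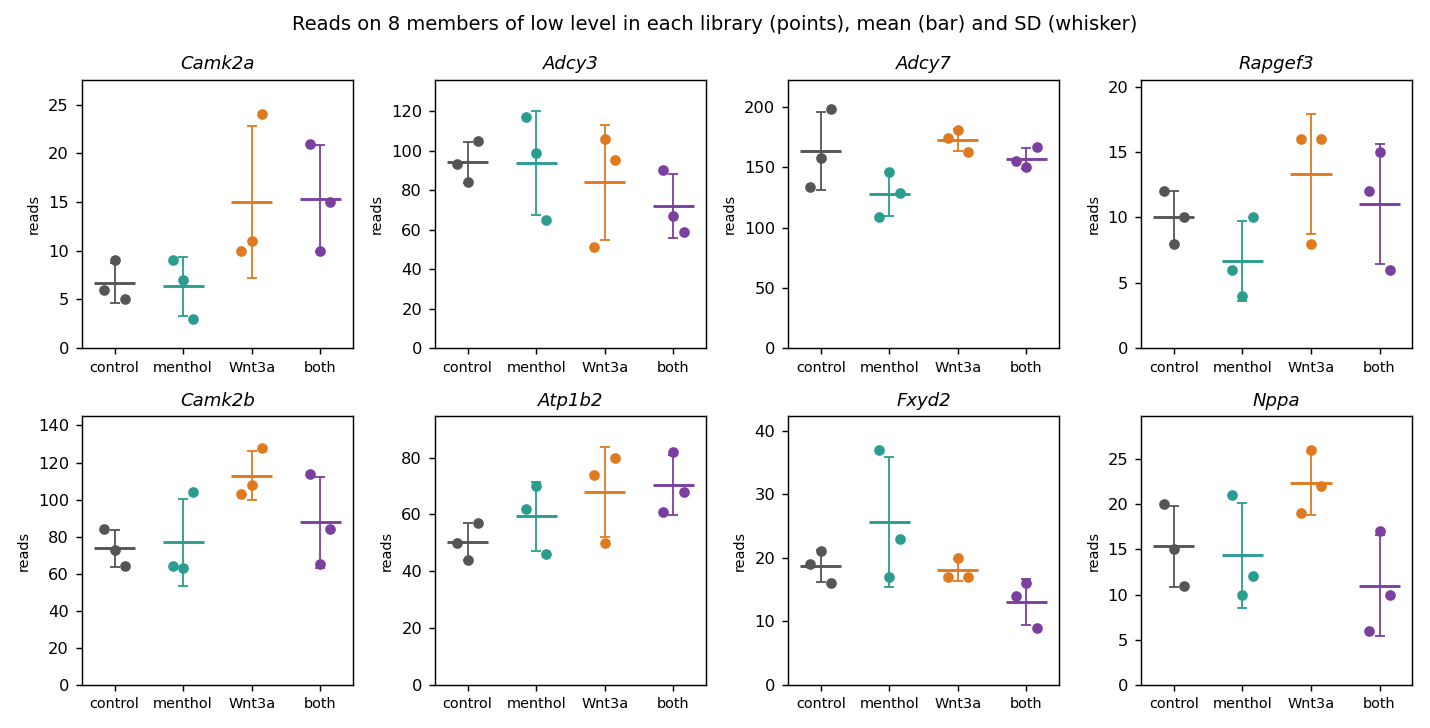
Recovered reads (vertical axes, on their own scales) of 8 members of low level in each of the 12 libraries (points), with the mean (bar) and SD (whisker) of the 3 libraries of each group. For *Camk2a* all 6 libraries with Wnt3a have 10 reads or more, while no library without it has more than 9.

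The calmodulin genes *Calm2* and *Calm3*, which encode an identical calcium sensor, had means of 403 and 215 FPKM. *Calm2* had a Wnt3a effect of 0.017 (interval -0.032 to 0.065). Of the calmodulin kinases, *Camk2d* and *Camk2g* were the abundant forms at 33.0 and 11.4 FPKM, and the neuronal forms *Camk2b* and *Camk2a* stood at 0.520 and 0.0594. *Camk2b* had 84, 73 and 64 reads in control and 103, 108 and 128 with Wnt3a, and a Wnt3a effect of 0.35 (interval 0.017 to 0.68, limma adjusted p = 0.326). *Camk2a* had 6, 9 and 5 reads in the controls, 9, 7 and 3 under menthol, 10, 11 and 24 under Wnt3a and 21, 10 and 15 under both agents. All 6 libraries with Wnt3a lay above the other 6, at a level under the minimum. The share of such low genes that separate in this way was not counted. Voom gave a Wnt3a effect of 1.17 for *Camk2a* (adjusted p = 0.111). Reads on neuronal markers were also more numerous in most of the libraries with Wnt3a. The 9 neuronal markers under the minimum, *Snap25* foremost, summed to 16, 39 and 34 reads in the controls, 19, 51 and 32 under menthol, 46, 73 and 77 under Wnt3a and 97, 88 and 108 under both agents. The libraries with Wnt3a overlapped those without it by 1 library on each side. The part of these markers in the values of *Camk2a* and *Camk2b* was not tested, and more RNA per cell and more cells of a kind cannot be told apart in bulk RNA. *Calml4*, a calmodulin-like gene, had a menthol effect of -0.29 (SE 0.114, limma adjusted p = 0.234).

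The remaining roles held no called member. *Cngb1*, a subunit of cyclic nucleotide-gated channels, had a mean of 0.136 FPKM and was not tested. *Ppp1ca*, a catalytic subunit of protein phosphatase 1, had a Wnt3a effect of 0.013 (interval -0.026 to 0.052). *Nfkbia*, the inhibitor of NF-κB, stood at 78.5, 78.9 and 69.6 FPKM with Wnt3a and at 68.5, 71.7 and 68.5 in control, with a Wnt3a effect of 0.053 (limma adjusted p = 0.571). *Bdnf*, a neurotrophin gene and a known CREB target, stood at 5.53, 5.37 and 5.19 FPKM with Wnt3a and at 5.04, 5.56 and 4.75 in control. Its Wnt3a effect was 0.091 (interval -0.0028 to 0.18, limma adjusted p = 0.368). *Popdc2*, a cAMP-binding membrane protein gene, had a Wnt3a effect of -0.14 (limma adjusted p = 0.635).

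*Nppa*, the natriuretic peptide of the heart, had the largest menthol difference of a tested member in either direction. Its reads were 20, 15 and 11 in the controls, 21, 10 and 12 under menthol, 19, 26 and 22 under Wnt3a and 6, 17 and 10 under both agents. The menthol effect of -0.51 (interval -0.97 to -0.057, limma adjusted p = 0.258) did not pass, and the groups overlapped. Heart muscle markers were also present at low level. The 5 that are not members summed to 79 to 118 reads in the controls, 251 to 390 under menthol, 128 to 295 under Wnt3a and 83 to 334 under both agents, and their part in the values of *Nppa* and *Tnni3* was not tested.

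The size of the differences was also set beside that of all tested genes. The median size of the Wnt3a effect was 0.037 over the 75 members and 0.043 over all tested genes, and of the menthol effect 0.037 and 0.045. For Wnt3a 35 members lay higher and 40 lower, with a median of -0.010 against 0.0032 over all tested genes. For menthol 39 lay higher and 36 lower. At an unadjusted p under 0.05, 10 of 75 members (13.3%) lay under it for Wnt3a, against 14.2% of tested genes.

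The comparisons of single groups gave no called member either. For Wnt3a alone against control the count was 0 of 75 members, against 50 genes in all (0.437%), with 12 members and 15.1% of genes at an unadjusted p under 0.05. For menthol alone against control it was 0, against 12 genes (0.105%), with 1 such member, *Pld2*, against 9.34% of genes. For both agents against Wnt3a alone it was 0, against 6 genes (0.0524%), with 10 such members against 14.5% of genes, and for both against menthol alone 0, against 11 genes (0.0961%), with 2, *Creb3l2* and *Fxyd2*, against 6.72% of genes. For the interaction 0 members and 0 genes passed (0%), with 5 members and 6.99% of genes at an unadjusted p under 0.05. By limma voom on the genes with a mean of at least 10 reads, 2 members passed for Wnt3a alone against control (*Crebbp* and *Ep300*, both lower, against 1.99% of genes), 2 for both agents against menthol alone (*Creb3l2*, lower, among them, against 0.269%) and 0 for the menthol effect (2.1%). These comparisons share control or treated libraries with each other.

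Among the 80 genes with the cAMP label that are not members, 17 were tested and 2 were called for the Wnt3a effect, both lower. They were *Gli3*, a transcription factor of the hedgehog pathway, at -0.23 (limma adjusted p = 0.0150), and *Jun*, a subunit of AP-1, at -0.16 (limma adjusted p = 0.0318). *Gli3* was also called for Wnt3a alone against control (limma adjusted p = 0.0354). That call was lost when libraries were centred within the length classes. With 1 library left out, 0 to 2 of the 17 were called in that comparison and 1 to 3 for the Wnt3a effect. None of the 17 was called for the menthol effect.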

How the data were processed

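RNA from 12 ND7/23 libraries was sequenced. By the methods and the submitters' processing notes, the authors filtered reads with fastp, aligned them with HISAT to mRatBN7.2, counted them with HTSeq and computed the FPKM values that they deposited. Tool versions other than R 3.2.0 and the treatment of mouse reads in this hybrid line are not given in the sources used here. The authors' own comparisons used DESeq2.

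From these FPKM values, limma 3.58.1 (R 4.3.3) was fitted on log2(FPKM + 0.1) with a variance trend and all 4 groups in 1 fit, two-sided, for 11451 genes with a mean of at least 0.5 FPKM. A fold change on this scale understates that of low genes. FPKM values were whole multiples of 1 read for 100.0% of 21556 genes (relative tolerance 1e-09). The recovered reads gave depth and the voom alternative, and for 1804 genes above 0 in 1 library only they rest on 1 value. On simulated data for the Wnt3a effect (11451 genes), limma called 34 of 67 genes changed 1.25-fold, 66 of 67 changed 1.5-fold and 66 of 66 changed 2-fold, with 13 false calls. The simulated reads had the same dispersion for every gene and no length trend. These rates are therefore not those of the test on the real libraries.

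Named genes were the called members, those with the lowest p (10 for each effect and 5 for the interaction), the highest of each role, the cyclases and pump subunits with a mean of at least 10 reads, the members next to the minimum and 5 low untested ones. *Creb1*, *Gnas*, *Gnai3*, *Rhoa*, *Camk2d*, *Camk2g*, *Calm3*, *Tnni3*, *Rapgef4*, *Adcy1*, *Adcy2*, *Gli3* and *Jun* were added later. Some members are not reported here. The members and lists were chosen with earlier results of these data known. RefSeq promoters (GRCr8) matched 85 of 116 members by NCBI gene identifier. Gene coordinates are not given, since the reference build differs from that of the files.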

Additional observations from a re-analysis of the deposited data

How the results depend on the processing

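Of the 50 gene differences with a low p, 0 of 1068 values under other settings reversed, 13 lost a call and 8 gained one. These differences were picked for a low p and the settings reuse the same libraries, so the lack of reversals is no separate evidence. For the Wnt3a effect the count of called members, 1, became 0 with a change of more than 2-fold required, 0 with no FPKM minimum and 0 with a pseudocount of 0.01, it became 3 by limma voom on genes with a mean of at least 10 reads, and it was 0 to 1 with 1 library left out. With no minimum more genes were tested. For Wnt3a alone against control the count, 0, became 2 by limma voom on the reads and 2 by voom on genes with a mean of at least 10 reads, and it was 0 to 1 with 1 library left out, where *Ep300* passed without Wnt3a replicate 3. For both agents against menthol alone the count, 0, became 1 and 2 by these voom settings, *Creb3l2* among them in each. For the rest of these changes the cause was not tested. With the replicate number as a block, 1 member was called for the Wnt3a effect (*Creb3l2*, limma adjusted p = 0.0402) and 0 in the other comparisons. The deviations of same-numbered libraries correlated at -0.0551 to 0.153, over 0.1 in 1 of 18 pairs, and those of other pairs at -0.157 to 0.115. On average 7 of 12 libraries correlated best with those of their own number. With the block, the called genes went from 92 to 135 for the Wnt3a effect and from 132 to 157 for the menthol effect. For both agents against menthol alone they went from 11 to 10. These values do not decide whether the numbers pair the libraries. The voom setting on genes with a mean of at least 10 reads, the centring by length and the count of groups that do not overlap were chosen after seeing the data. Depth limits members of low level such as *Camk2a* and *Nppa*, and counts cover counting error only.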
